A study of Mus musculus with 2 samples.

Results

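The genes described here are the expressed Zfp genes of resting mouse T cells, the numbered zinc finger protein genes. They were chosen by symbol and selected on measured level. A member is a symbol made of Zfp and a number, other than Zfp36, with at least 1 RPKM (reads divided by gene length and library size) in the naive CD4 library, the naive CD8 library or both. Of 339 such symbols 267 passed, among 23167 symbols in all and 10228 at 1 RPKM or more in either library, which are called the compared genes below. The level that chose the members is given as a description, and the difference between the libraries was not used to choose them.

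Total RNA depleted of ribosomal RNA was sequenced from naive CD4 T cells and from naive CD8 T cells, the resting precursors of helper and cytotoxic T cells, with 1 library for each. Both came from the spleen and lymph nodes of Foxp3-GFP reporter mice on the C57/BL6 background, and both were made as SOLiD whole-transcriptome libraries. The cells were sorted by naive surface markers, as low for CD44 and negative for CD25 and for the Foxp3 reporter, in both groups. The labels give neither the ages nor the number of animals. With 1 library per cell type no difference below has a replicate check. Intervals are exact 95% Clopper-Pearson intervals from the split of a gene's reads between the libraries, and they cover counting error only.

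Most Zfp genes encode proteins with C2H2 zinc fingers, short folds held by a pair of cysteines and a pair of histidines around a zinc ion, which are often repeated in tandem and read DNA letters. Many also carry a KRAB box, which binds the corepressor Trim28. Trim28 in turn brings the histone methyltransferase Setdb1, HP1 proteins and the NuRD complex, and DNA methylation can follow at the silenced site. Such genes often lie side by side in the genome, where they arose by duplication.

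The letters of 266 members' proteins could be translated from an annotation, and 261 of them held at least 1 match to the C2H2 pattern. The median was 10 matches and the highest was 37, in Zfp142. The 5 members without a match were Zfp259, Zfp330, Zfp365, Zfp839 and Zfp935. Zfp259 is now named Zpr1 and has zinc fingers of another type, so that the family name does not fix the kind of protein. The core letters of the KRAB box were found in 93 of the 266.

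Promoters of 3 members are shown because these members mark the ends of the data. Zfp207 had the highest mean level, Zfp467 the largest difference toward CD4 and Zfp827 the largest difference toward CD8. The sequences are from RefSeq, build GRCm38.p6, and run from 250 bases before to 50 bases after the gene's start, 5′ to 3′ on the gene's strand. Capitals mark CG dinucleotides, the sites at which mammalian DNA is methylated and hydroxymethylated. The Zfp207 window lies at chr11:80383029-80383328, plus strand, the Zfp467 window at chr6:48445041-48445340, minus strand and the Zfp827 window at chr8:79028187-79028486, plus strand.
Zfp207: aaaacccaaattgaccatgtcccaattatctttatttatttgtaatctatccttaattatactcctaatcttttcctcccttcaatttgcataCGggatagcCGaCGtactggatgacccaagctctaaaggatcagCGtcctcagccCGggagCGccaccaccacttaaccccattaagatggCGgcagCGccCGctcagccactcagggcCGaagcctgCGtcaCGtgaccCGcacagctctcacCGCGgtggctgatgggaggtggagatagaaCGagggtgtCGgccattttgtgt
Zfp467: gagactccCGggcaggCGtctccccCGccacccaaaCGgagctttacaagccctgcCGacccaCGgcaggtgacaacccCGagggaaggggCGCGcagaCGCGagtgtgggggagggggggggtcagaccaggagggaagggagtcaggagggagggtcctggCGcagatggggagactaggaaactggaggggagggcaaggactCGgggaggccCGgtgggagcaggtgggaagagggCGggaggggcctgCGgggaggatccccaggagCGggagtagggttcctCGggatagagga
Zfp827: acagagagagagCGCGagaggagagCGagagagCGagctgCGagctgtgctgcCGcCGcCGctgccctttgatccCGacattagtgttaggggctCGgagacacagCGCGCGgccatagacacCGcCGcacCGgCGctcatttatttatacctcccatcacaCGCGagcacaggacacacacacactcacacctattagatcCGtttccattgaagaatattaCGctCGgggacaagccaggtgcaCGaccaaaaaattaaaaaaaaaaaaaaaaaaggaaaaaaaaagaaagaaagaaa

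These windows held 17, 18 and 23 CG dinucleotides in the order shown. Across 225 members with a window in the table the median was 15, with a range of 1 to 54. The median was 21 over 7309 compared genes and 12 over 52 Zfp genes under the level threshold. Members with the KRAB letters had a median of 12 (84 windows), and members without them had 16 (140 windows). The 7 letters CCGGAAG, the core of sites bound by Ets factors, stood on either strand in 49 member windows (21.8%), in 1534 of 7309 windows of compared genes and in 9.12% of all 27025 windows in the table. The 7 letters ACTACAA, part of the site bound by Zfp143, stood in 13 member windows (5.78%). They stood in 354 of the 7309 (4.84%) and in 3.45% of all. These are matches of letters and not measured sites.

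The sort showed in its defining genes. Cd4 was at 305 RPKM in the CD4 library and 8.89 in the CD8 library, and Cd8a was at 2.50 RPKM in CD4 cells and 518 RPKM in CD8 cells. Cd8b1 was at 21.4 RPKM in CD4 cells and 788 RPKM in CD8 cells. Of 9 naive T cell genes none differed by 2-fold. Most of the genes listed as NK cell markers were higher in CD8, and whether NK cells carried them was not tested. All 6 of that list summed to 45.0 RPKM in CD4 cells and 179 RPKM in CD8 cells, with 4 of 5 expressed genes at least 2-fold higher in CD8, while Ncr1 was at 0.111 RPKM in CD4 and listed at 0 in CD8. The 6 B cell markers summed to 3.45 RPKM in CD4 cells and 30.3 RPKM in CD8 cells, of which Cd79b made 2.14 and 28.8. Myeloid markers summed to 7.42 RPKM in CD4 cells and 6.43 RPKM in CD8 cells, with Cd14 at 0 in both. The regulatory T cell genes were mixed, although the sort was against those cells. Foxp3 had 1.40 RPKM in CD4 and 0.161 RPKM in CD8, Ikzf2 had 1.07 RPKM in CD4 and 5.38 RPKM in CD8, and Ctla4 had 3.82 RPKM in CD4 and 8.64 RPKM in CD8, each at least 2-fold apart, and Il2ra was under 1 RPKM in both. The 4 summed to 6.71 RPKM in CD4 and 14.4 RPKM in CD8. The part of other cells in the Zfp values, Zfp318 among them, was not tested. In such bulk libraries fewer cells with a transcript and less transcript per cell cannot be told apart.

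Zfp genes were expressed at low to moderate levels. Their median was 6.96 RPKM in CD4 cells and 6.58 RPKM in CD8 cells, against 14.1 RPKM in CD4 cells and 13.4 RPKM in CD8 cells for all compared genes. The middle 50% of members by mean level lay between 3.61 and 13.3 RPKM, and 101 of 267 averaged 10 RPKM or more. The median member had 577 reads in CD4 and 569 in CD8. The threshold of 1 RPKM was met in both libraries by 252 members, in CD4 alone by 12 and in CD8 alone by 3.

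Just inside the threshold lay Zfp458, at 1.01 RPKM in CD4 cells and 0.638 RPKM in CD8 cells, Zfp960 (1.06 in CD4 and 0.407 in CD8), Zfp948 (1.06 and 0.502), Zfp286 (1.05 and 1.08) and Zfp493 (1.09 and 1.01). Just outside it lay Zfp174, at 0.973 RPKM in CD4 cells and 0.233 RPKM in CD8 cells, Zfp296, Zfp433 (0.781 in CD4 and 0.528 in CD8), Zfp316 (0.781 and 0.627) and Zfp946 (0.403 and 0.778). Zfp296 was at 0.132 RPKM in CD4 cells and 0.879 RPKM in CD8 cells. Of the 72 symbols under the threshold 21 were listed at 0 in both libraries. Zfp131 and Zfp532 were among them, and genes that every cell uses, such as Rpl26 of the ribosome and Ndufs5 of the respiratory chain, were also listed at 0 in both, so a listed 0 is not read as absence.

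The highest member was Zfp207, at 59.4 RPKM in CD4 cells and 56.4 RPKM in CD8 cells. It encodes BuGZ, which binds the checkpoint protein Bub3 at the spindle. The libraries were close for it, with a CD4-over-CD8 ratio of 1.05 (95% counting interval 1.01 to 1.10). Zfp740 followed at 60.4 RPKM in CD4 cells and 45.2 RPKM in CD8 cells, a ratio of 1.34 (1.28 to 1.39). Its reads were recovered as 12 times their smallest whole number, so that its interval is less certain. Zfp110, a KRAB protein that binds the neurotrophin receptor p75, was at 52.1 RPKM in CD4 cells and 36.6 RPKM in CD8 cells (1.42, 1.36 to 1.49). These were the only members to average over 44 RPKM.

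Zfp259, the Zpr1 gene, was at 40.1 RPKM in CD4 cells and 42.2 RPKM in CD8 cells. Zfp146, a protein made almost wholly of zinc fingers, was at 42.1 RPKM in CD4 cells and 38.8 RPKM in CD8 cells. Zfp386, a KRAB gene, leaned to CD8, at 33.8 RPKM in CD4 cells and 46.1 RPKM in CD8 cells (0.733, 0.688 to 0.780). Zfp217, a repressor whose human counterpart is amplified in breast cancer, was at 41.7 RPKM in CD4 cells and 37.4 RPKM in CD8 cells. Zfp263 was at 40.5 RPKM in CD4 cells and 37.9 RPKM in CD8 cells. Zfp646, with 30 fingers, was at 41.9 RPKM in CD4 cells and 32.6 RPKM in CD8 cells (1.28, 1.24 to 1.33). Zfp292 was at 36.5 RPKM in CD4 cells and 35.1 RPKM in CD8 cells, Zfp330, a nucleolar protein, at 37.0 and 32.3 RPKM in CD4 and CD8, and Zfp260 at 35.5 and 32.6 RPKM in CD4 and CD8. Among these 12 most abundant members the ratio ran from 0.733 for Zfp386 to 1.42 for Zfp110.

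**Figure D1:**
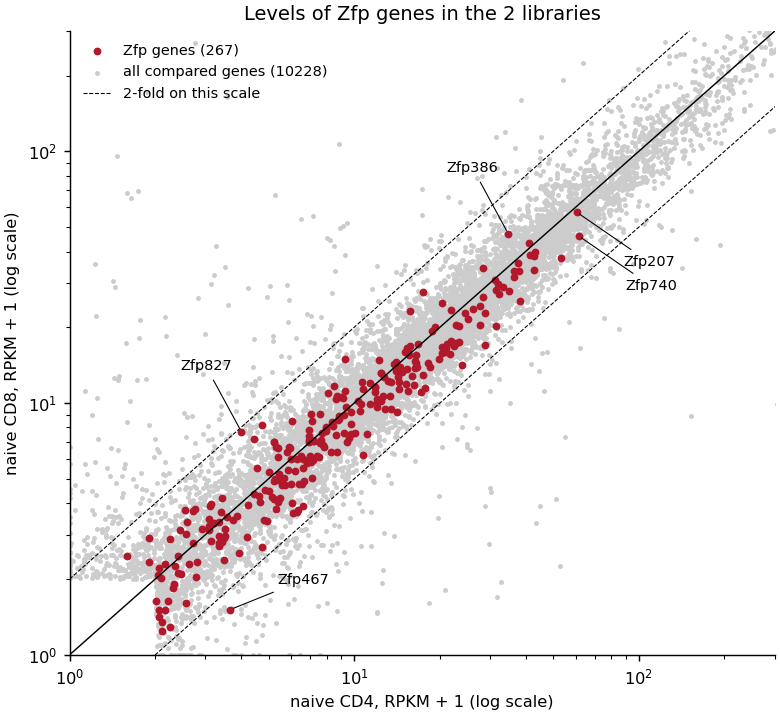
RPKM + 1 in the naive CD4 library (horizontal) and the naive CD8 library (vertical), both on log scales, for 267 Zfp genes (red) and 10228 compared genes (grey), with equality as a solid line and 2-fold as dashed lines. The axes end at 300, which leaves out 188 compared genes. Zfp467 is the red point beyond the lower dashed line, Zfp827 lies just inside the upper one, and Zfp207 has the highest mean.

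Counts of Zfp genes with a large difference between the libraries were low on the RPKM scale as deposited. The size of a difference was taken as log2((CD4 RPKM + 1)/(CD8 RPKM + 1)), and a value of 1 or more in either direction is called at least 2-fold. By this rule 1 of 267 members, Zfp467, was at least 2-fold higher in CD4, or 0.375%, against 2.41% of compared genes. None was at least 2-fold higher in CD8, against 3.07% of compared genes. Without the pseudocount, 9 members had an RPKM ratio of 2 or more toward CD4, or 3.37%, against 4.39% of compared genes. Toward CD8 3 members did, or 1.12%, against 4.78% of compared genes. The ratio lay between 0.5 and 2 for the other 255.

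Most of these members passed the level threshold only through the library in which they were high. Of the 9 toward CD4 all but Zfp219 were under 1 RPKM in CD8, Zfp467 included, and of the 3 toward CD8 all but Zfp827 were under 1 RPKM in CD4, so that these counts support nothing about the family. Among the 252 members at 1 RPKM or more in both libraries 0 passed the size rule in either direction, against 1.67% of 9583 compared genes of that kind toward CD4 and 1.95% toward CD8. By the ratio without the pseudocount 1 of the 252, Zfp219, passed toward CD4 (0.397%, against 2.62%) and 1, Zfp827, toward CD8 (0.397%, against 2.71%). The counts depend on scale and on the weight of the pseudocount. With both libraries brought to a summed RPKM of 1000000, 11 of the 267 were at least 2-fold higher in CD4, or 4.12%, against 5.05% of compared genes. Toward CD8 0 were, against 2.79%. The rescaling also changed the weight of the fixed pseudocount, so log2 differences did not move alike. Zfp467 went from 1.28 to 1.80, Zfp207 from 0.07 to 0.29 and Zfp516 from -0.63 to -0.71.

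The bulk of the members leaned slightly toward CD4. Their median log2 difference was 0.15, against 0.08 for all compared genes, and 187 of 267 (70.0%) were above 0, against 59.5% of compared genes. The counting interval lay above 1 for 137 members, or 51.3%, against 45.0% of compared genes. It lay below 1 for 44 members, or 16.5%, against 27.1% of compared genes, and it held 1 for the other 86. Among the 252 members at 1 RPKM or more in both libraries the median was 0.13 and 175 were above 0, against a median of 0.08 for the 9583 compared genes of that kind. Centred on the median compared gene the members' median was 0.07, and with both libraries brought to a summed RPKM of 1000000 it was 0.36, against 0.29 for all compared genes.

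**Figure D2:**
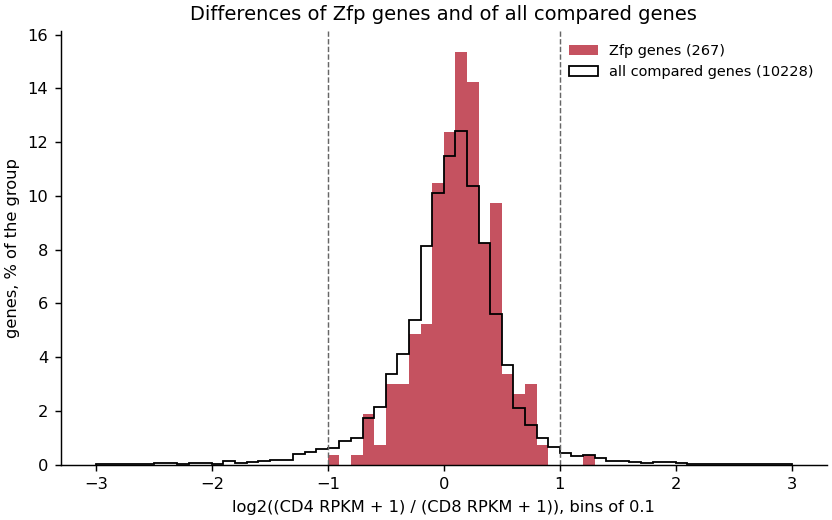
Share of genes in bins of 0.1 of log2((CD4 RPKM + 1)/(CD8 RPKM + 1)) for 267 Zfp genes (red bars) and 10228 compared genes (black outline), with 2-fold marked by dashed lines. The outline reaches past the limit of 3 in either direction for 46 genes, while the Zfp genes end at -0.94 and 1.28.

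The narrow range was seen at each level of expression. Among genes averaging under 2 RPKM the standard deviation over genes of the log2 difference was 0.43 for 33 members and 0.68 for 981 compared genes. Between 5 and 10 RPKM it was 0.28 for 69 members and 0.53 for 1735 compared genes, and between 20 and 50 RPKM it was 0.29 for 33 members and 0.49 for 2476. The difference lay in the tails more than in the middle. A change of less than 1.25-fold was seen for 64.4% of members and 61.0% of compared genes, and the middle 50% spanned -0.05 to 0.33 for members and -0.16 to 0.30 for compared genes. These compare sets of genes within the same libraries and have no test.

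**Figure D3:**
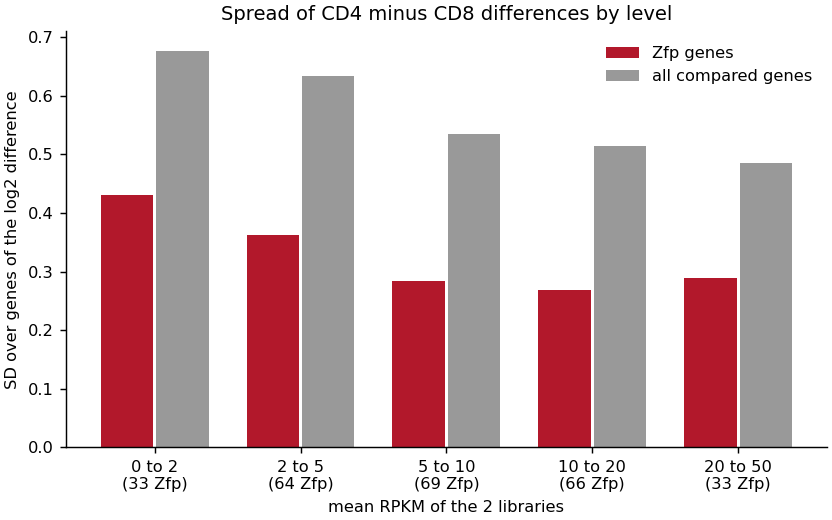
Standard deviation over genes of log2((CD4 RPKM + 1)/(CD8 RPKM + 1)) in 5 ranges of mean RPKM, for Zfp genes (red) and all compared genes (grey, members included). In each range the Zfp bar is the lower, from 0.43 against 0.68 under 2 RPKM to 0.29 against 0.49 between 20 and 50 RPKM. The range under 2 RPKM holds the Zfp genes that met the threshold in 1 library only, which shaped its spread.

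Gene length moves with the difference in these libraries, and members were longer than other genes, with a median recovered length of 3478 bases against 2872 for all compared genes. Compared genes were put in 4 equal groups by length. In the shortest the median log2 difference was -0.07 for 15 members and -0.06 for 2552 compared genes. In the second it was 0.19 for 75 members and 0.08 for compared genes, in the third 0.14 for 109 members and 0.12, and in the longest 0.14 for 68 members and 0.15. The part of length in the lean was not tested beyond these values.

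The largest difference toward CD4 was in Zfp467, also known as EZI, which was first described as a nuclear partner of the transcription factor STAT3. It was at 2.67 RPKM in CD4 cells and 0.513 RPKM in CD8 cells, with 259 and 48 reads in CD4 and CD8. The ratio was 5.20 (3.81 to 7.24) and the log2 difference 1.28. Its symbol stands on 3 rows of each file with the same value. Zfp219, a partner of Sox9 in mouse cartilage, came next at 3.74 RPKM in CD4 cells and 1.67 RPKM in CD8 cells (2.23, 1.82 to 2.76).

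The other members with a ratio of 2 or more toward CD4 were under 2 RPKM in both libraries. Zfp558, a KRAB gene, was at 1.11 RPKM in CD4 cells and 0.241 RPKM in CD8 cells, and its 105 and 22 reads in CD4 and CD8 gave 4.60 (2.89 to 7.65). Zfp947 was at 1.25 RPKM in CD4 cells and 0.284 RPKM in CD8 cells (4.39, 2.61 to 7.78). It shares 20.05% of its 50-base words with other annotated genes, chiefly Zfp995, so that its reads are uncertain. Zfp11 was at 1.56 RPKM in CD4 cells and 0.611 RPKM in CD8 cells (2.55, 1.87 to 3.53), and Zfp879 at 1.11 RPKM in CD4 cells and 0.349 RPKM in CD8 cells (3.18, 1.90 to 5.54). The rest with a ratio of 2 or more were Zfp248 (2.32), Zfp948 (2.11) and Zfp960 (2.60). Zfp960 shares 84.5% of its 50-base words, chiefly with Zfp97.

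The better measured genes of this end had smaller ratios. Zfp831 was at 23.0 RPKM in CD4 cells and 13.1 RPKM in CD8 cells, and its 5571 and 3070 reads in CD4 and CD8 gave a ratio of 1.75 (1.67 to 1.83). Zfp692 was at 27.8 RPKM in CD4 cells and 16.1 RPKM in CD8 cells (1.73, 1.58 to 1.90). Zfp287 was at 9.77 RPKM in CD4 cells and 5.22 RPKM in CD8 cells (1.87, 1.70 to 2.07). Zfp362, Zfp931, Zfp938 and Zfp3 each had ratios from 1.90 to 1.97 at 5.08 to 5.60 RPKM in CD4, against 2.67 to 2.89 RPKM in CD8. Zfp931, Zfp938 and Zfp3 had 229 to 267 reads in CD4, near the 259 of Zfp467. Zfp931 shares 16.7% of its 50-base words, chiefly with Zfp970.

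Toward CD8 the largest difference was in Zfp827, whose human counterpart brings the NuRD complex to telomeres in cells that maintain them by recombination. It was at 3.01 RPKM in CD4 cells and 6.70 RPKM in CD8 cells, with 566 and 1213 reads in CD4 and CD8. The ratio was 0.450 (0.406 to 0.497) and the log2 difference -0.94, under the size rule. Zfp516, a driver of brown fat genes in mice, was at 0.590 RPKM in CD4 cells and 1.46 RPKM in CD8 cells (0.404, 0.322 to 0.505). Zfp647, a KRAB gene, was at 0.899 RPKM in CD4 cells and 1.90 RPKM in CD8 cells (0.473, 0.331 to 0.667).

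Zfp52 was at 3.74 RPKM in CD4 cells and 7.18 RPKM in CD8 cells (0.520, 0.450 to 0.601), and its neighbour Zfp53 at 16.4 RPKM in CD4 cells and 26.7 RPKM in CD8 cells (0.614, 0.571 to 0.659). Zfp523 was at 3.45 RPKM in CD4 cells and 6.22 RPKM in CD8 cells (0.554, 0.469 to 0.654). Zfp959 was at 8.29 RPKM in CD4 cells and 13.97 RPKM in CD8 cells (0.593, 0.524 to 0.671), with 21.3% of its 50-base words shared, chiefly with its neighbour Zfp119b. Zfp472 was at 14.7 RPKM in CD4 cells and 22.3 RPKM in CD8 cells (0.657, 0.602 to 0.718). Zfp318, which B cells need to express IgD, was at 5.06 RPKM in CD4 cells and 7.52 RPKM in CD8 cells (0.674, 0.637 to 0.713), beside the B cell marker Cd79b at 2.14 and 28.8 RPKM in CD4 and CD8. The remaining genes of this end were Zfp383 (0.557), Zfp760 (0.627) and Zfp654 (0.704).

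**Figure D4:**
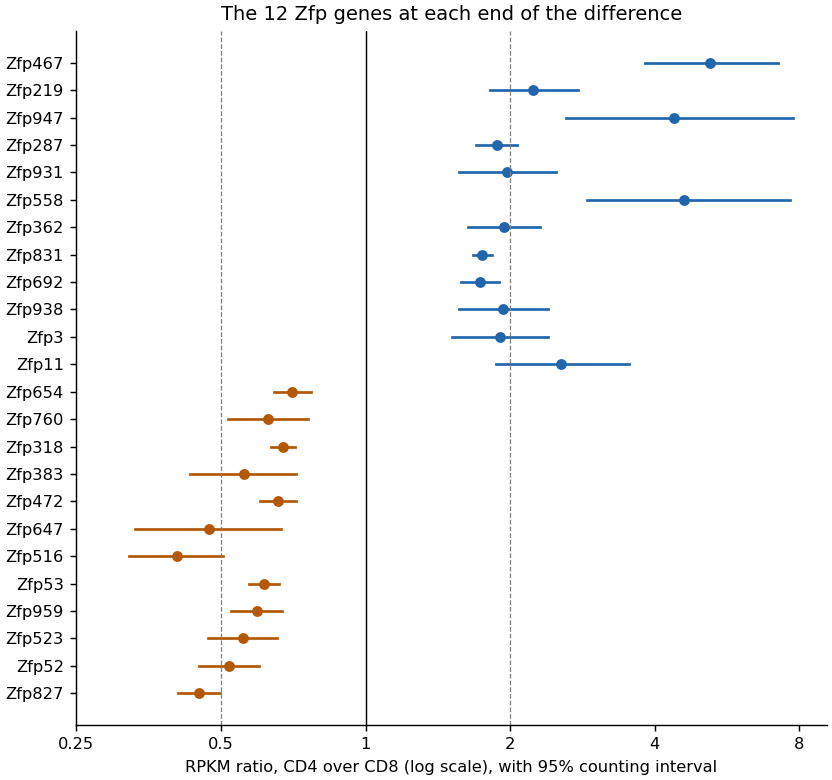
RPKM ratio of CD4 over CD8 on a log scale, with 95% counting intervals as lines, for the 12 Zfp genes with the highest (blue) and the 12 with the lowest (orange) log2 difference. No interval holds 1. Zfp467, Zfp947 and Zfp558 are the genes with a whole interval above 2, and Zfp827 alone has one below 0.5.

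Among Zfp proteins that act on chromatin and signalling, 30 of 38 listed genes were members. Their median log2 difference was 0.13, against 0.08 for all compared genes, with 21 above 0 and 9 below 0. Zfp467, a member only through its CD4 level, was the 1 gene past the size rule. That is 3.33% of the 30, against 2.41% of compared genes toward CD4. Toward CD8 0 passed, against 3.07% of compared genes. Zfp592 and Zfp687, which join Zfp532 and Zmynd8 in a complex, both leaned to CD4. Zfp592 was at 30.5 RPKM in CD4 cells and 19.3 RPKM in CD8 cells (1.58, 1.52 to 1.65), and Zfp687 at 16.2 RPKM in CD4 cells and 10.1 RPKM in CD8 cells (1.61, 1.49 to 1.74). Zfp238, the repressor Zbtb18, was at 13.1 RPKM in CD4 cells and 8.23 RPKM in CD8 cells (1.59, 1.47 to 1.72). Zfp746, the repressor PARIS, was at 26.6 RPKM in CD4 cells and 19.5 RPKM in CD8 cells (1.36, 1.28 to 1.45).

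Zfp281 and Zfp148 are related factors that bind GC-rich DNA, and they did not move alike. Zfp281 was at 34.1 RPKM in CD4 cells and 26.8 RPKM in CD8 cells (1.27, 1.21 to 1.33). Zfp148 was at 17.7 RPKM in CD4 cells and 18.3 RPKM in CD8 cells (0.966, 0.924 to 1.01), an interval that holds 1. Zfp143, which binds promoters and takes part in chromatin loops, was at 32.4 RPKM in CD4 cells and 27.9 RPKM in CD8 cells (1.16, 1.09 to 1.23). Zfp335, which mouse T cells need to mature and persist as naive cells, was near equal at 27.3 RPKM in CD4 cells and 25.4 RPKM in CD8 cells (1.08, 1.02 to 1.13).

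Zfp644, a partner of the histone methyltransferases G9a and GLP, was at 26.6 RPKM in CD4 cells and 23.3 RPKM in CD8 cells (1.14, 1.09 to 1.20). Zfp410, an activator of Chd4, was at 10.4 RPKM in CD4 cells and 11.04 RPKM in CD8 cells (0.940, 0.871 to 1.01). Zfp91, a ubiquitin ligase of NF-kB signalling, was at 15.5 RPKM in CD4 cells and 14.5 RPKM in CD8 cells (1.07, 1.01 to 1.14). Zfp451, a SUMO ligase, was at 9.74 RPKM in CD4 cells and 10.3 RPKM in CD8 cells (0.942, 0.857 to 1.03). Zfp341, which human cells need to express STAT3, was low at 2.14 RPKM in CD4 cells and 1.83 RPKM in CD8 cells (1.17, 0.931 to 1.47). Zfp609, a partner of the cohesin loader Nipbl, was at 1.71 RPKM in CD4 cells and 2.71 RPKM in CD8 cells (0.631, 0.551 to 0.721).

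For the rest of this list the ratio was 1.21 for Zfp384 (1.10 to 1.33), 1.16 for Zfp407, 1.14 for Zfp161, 1.12 for Zfp277, 1.08 for Zfp142, 0.962 for Zfp828 and 0.975 for Zfp395. The intervals of Zfp142, Zfp828 and Zfp395 held 1. Zfp296, Zfp423, Zfp462, Zfp521, Zfp703 and Zfp750 were under the threshold, together with Zfp131 and Zfp532.

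Zfp proteins that work with RNA and ribosomes differed little. Of 12 listed, 11 were members, 6 were above 0 and 5 below 0, and their median was 0.04, against 0.08 for all compared genes. Zfp598, the ubiquitin ligase that marks collided ribosomes, was at 17.5 RPKM in CD4 cells and 12.9 RPKM in CD8 cells (1.35, 1.25 to 1.47). The factors of large ribosomal subunit assembly leaned the other way. Zfp622 was at 27.3 RPKM in CD4 cells and 33.5 RPKM in CD8 cells (0.815, 0.767 to 0.867), and Zfp593 at 11.2 RPKM in CD4 cells and 13.9 RPKM in CD8 cells (0.811, 0.722 to 0.909). With both libraries brought to a summed RPKM of 1000000 every ratio moves toward CD4, and the median of this list was then 0.25, while it was -0.04 when centred on the median compared gene.

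Zfp346, which binds double-stranded RNA, was at 11.4 RPKM in CD4 cells and 9.40 RPKM in CD8 cells (1.21, 1.10 to 1.33). Zfp106, an RNA-binding protein, was at 24.1 RPKM in CD4 cells and 20.7 RPKM in CD8 cells (1.17, 1.12 to 1.21). Zfp326, of the DBIRD complex that couples splicing to transcription, was at 4.82 RPKM in CD4 cells and 5.40 RPKM in CD8 cells (0.892, 0.765 to 1.04). Zfp830, Zfp706 and Zfp511 had ratios of 0.941, 1.03 and 0.925, and the interval of each held 1.

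Of 10 Zfp genes linked to imprints and retroelements 7 were members. Their median was 0.11, with 4 above 0 and 3 below. Zfp57, which guards imprints in the embryo, was at 0.0251 RPKM in CD4 and listed at 0 in CD8, and the pluripotency gene Zfp42 was listed at 0 in both. Zfp445, which guards imprints beside Zfp57, was by contrast expressed at 31.1 RPKM in CD4 cells and 28.7 RPKM in CD8 cells (1.08, 1.04 to 1.13). Zfp809, which silences retroviral DNA in mouse embryonic stem cells, was at 14.9 RPKM in CD4 cells and 11.8 RPKM in CD8 cells (1.26, 1.13 to 1.40). Zfp568, which represses a placental Igf2 transcript in mice, was at 5.94 RPKM in CD4 cells and 6.79 RPKM in CD8 cells (0.875, 0.804 to 0.951).

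Zfp932, a silencer of mouse endogenous retroviruses, was at 15.3 RPKM in CD4 cells and 13.7 RPKM in CD8 cells, with 45.2% of its 50-base words shared, chiefly with Gm15446. Zfp708 was at 8.03 RPKM in CD4 cells and 9.57 RPKM in CD8 cells, and all of its 50-base words are shared, chiefly with Gm28557. Zfp961 was at 8.34 RPKM in CD4 cells and 8.68 RPKM in CD8 cells (0.961, 0.853 to 1.08). Zfp819 was under the threshold, at 0.0672 RPKM in CD4 cells and 0.122 RPKM in CD8 cells.

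Members with and without the KRAB letters differed little from each other. The 93 KRAB members had a median log2 difference of 0.17, with 67 above 0, and the 173 members without the letters had 0.15, with 119 above 0. KRAB members were lower in level, at a median of 6.13 RPKM in CD4 cells and 5.72 RPKM in CD8 cells, against 7.84 RPKM in CD4 cells and 7.52 RPKM in CD8 cells for members without the letters. These medians rest on the core letters. Some members without them, such as Zfp53, Zfp51 and Zfp472, matched a looser KRAB pattern, for which no median level was taken. The highest KRAB members after Zfp110 and Zfp386 were Zfp869, at 35.5 RPKM in CD4 cells and 30.8 RPKM in CD8 cells (1.15, 1.09 to 1.21), and Zfp445. Neither had a difference near 2-fold.

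Members with few fingers had the lower medians, and above 4 fingers they showed no trend. The 5 members with 0 matches had a median log2 difference of -0.01. Members with 1 to 4 fingers (35 genes) had a median log2 difference of -0.05, with 16 above 0 and 19 below, and the 76 with 5 to 9 fingers had 0.18. The 94 members with 10 to 14 fingers had 0.15, and the 56 with 15 or more had 0.16, with 46 above 0 and 10 below. With both libraries brought to a summed RPKM of 1000000 the group with 1 to 4 fingers was at 0.15, still under the 0.29 of all compared genes, and the group with 0 matches was at 0.17. The level of the group with 1 to 4 fingers was also higher, at a median of 13.1 RPKM in CD4 cells and 12.9 RPKM in CD8 cells, against 6.12 RPKM in CD4 cells and 5.86 RPKM in CD8 cells for 15 or more fingers. No test was made of these differences.

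Trim28 and Setdb1, on which KRAB proteins act, were both expressed. Trim28 was at 105 RPKM in CD4 cells and 97.0 RPKM in CD8 cells (1.09, 1.05 to 1.12), and Setdb1 at 19.7 RPKM in CD4 cells and 15.95 RPKM in CD8 cells (1.23, 1.16 to 1.31). Of 38 listed genes in the files 37 were compared, and 0 passed the size rule in either direction, against 2.41% and 3.07% of compared genes toward CD4 and CD8. Their median log2 difference was 0.05, or -0.03 centred on the median compared gene and 0.26 at a summed RPKM of 1000000, against 0.08 and 0.29 for all compared genes.

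The highest of this list by mean RPKM were H3f3b, an H3.3 histone gene, at 277 RPKM in CD4 cells and 259 RPKM in CD8 cells, and H3f3a, the other, at 186 RPKM in CD4 cells and 250 RPKM in CD8 cells (0.742, 0.727 to 0.759). The NuRD helicases differed, with Chd3 at 234 RPKM in CD4 cells and 146 RPKM in CD8 cells (1.60, 1.57 to 1.63) and Chd4 at 165 RPKM in CD4 cells and 160 RPKM in CD8 cells (1.03, 1.01 to 1.05). The NuRD subunit Mta2 was at 112 RPKM in CD4 cells and 130 RPKM in CD8 cells (0.866, 0.841 to 0.892).

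Both directions were found among neighbouring Zfp genes, and no test of neighbours was made. Runs were read from the order of protein-coding genes in RefSeq, allowing 1 other gene between zinc finger genes, and 8 runs held at least 5 members, 71 in all. The run from Zfp677 to Zfp758 held 12 members with the lowest median, -0.10. After bringing both libraries to a summed RPKM of 1000000 that median was 0.10, against 0.29 for all compared genes. Its members spread from -0.79 for Zfp52 to 0.81 for Zfp947, with 5 above 0 and 7 below. Zfp947 was a member only through its CD4 level.

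Adjacent genes of this run differed in sign in some pairs and shared it in others. Zfp54 and Zfp51 had log2 differences of 0.33 and 0.31, Zfp53 and Zfp52 had -0.67 and -0.79, and Zfp942 and Zfp943 had -0.18 and -0.45. Of the pairs that differed in sign, Zfp51 was at 20.8 RPKM in CD4 cells and 16.7 RPKM in CD8 cells (1.25, 1.15 to 1.36), while Zfp53 beside it was at 16.4 RPKM in CD4 cells and 26.7 RPKM in CD8 cells (0.614, 0.571 to 0.659). Next to Zfp53, Zfp52 had a ratio of 0.520 and Zfp948 beyond it had 2.11 (1.36 to 3.35), at 1.06 RPKM in CD4 cells and 0.502 RPKM in CD8 cells. Under 1% of the 50-base words of Zfp53, Zfp52 and Zfp948 are shared with other genes. Farther along, Zfp943 was at 7.08 RPKM in CD4 cells and 10.01 RPKM in CD8 cells (0.707, 0.627 to 0.797), beside Zfp947 with its ratio of 4.39. Zfp948 and Zfp947 were under 1 RPKM in CD8 and members only through CD4. The threshold thus favoured their direction, and these pairs support nothing about neighbours.

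The largest run, from Zfp712 to Zfp273, was the most even. Its 16 members had a median of 0.14 and spread from -0.30 for Zfp953 to 0.42 for Zfp712, with 13 above 0 and 3 below. Of these, Zfp708, Zfp58, Zfp429, Zfp273, Zfp456 and Zfp455 share over 10% of their 50-base words with other annotated genes. The part of shared reads in the evenness was not tested. The run from Zfp84 to Zfp146 had 14 members and a median of 0.06, or -0.02 when centred on the median compared gene, and it held both the abundant Zfp146 and Zfp260 and the low Zfp383, at 1.55 RPKM in CD4 cells and 2.77 RPKM in CD8 cells. The run with Zfp467 had 7 members and a median of 0.27, and its other members lay between -0.09 and 0.43.

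**Figure D5:**
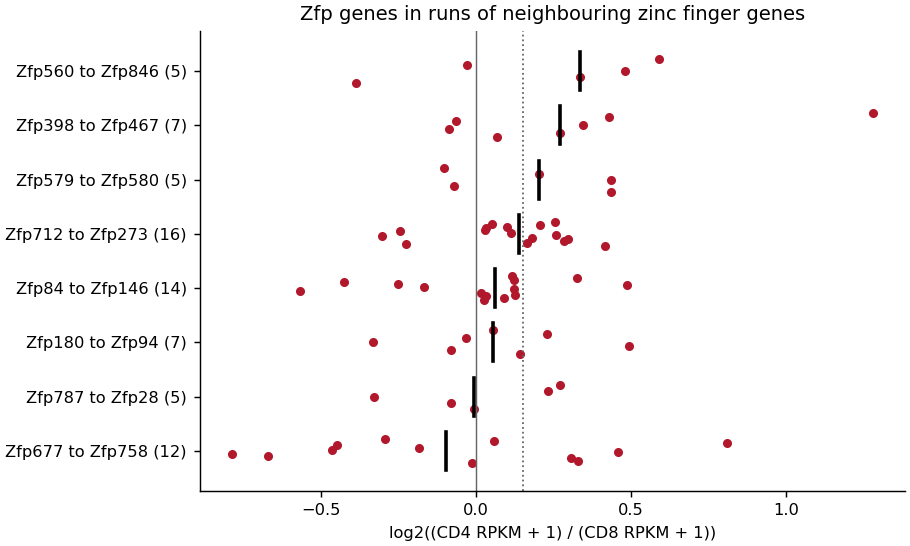
Log2((CD4 RPKM + 1)/(CD8 RPKM + 1)) of each Zfp gene (points) in 8 runs of neighbouring zinc finger genes, with the number of members in brackets and the run's median as a bar. The solid line is 0 and the dotted line the median of all Zfp genes, 0.15. Points lie on both sides of 0 in every run shown, and the run from Zfp677 to Zfp758 spreads from -0.79 to 0.81. The point at 0.81 is Zfp947, a member only through its CD4 level.

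Sequence shared with other annotated genes limits some values. The count of shared words does not tell duplicated copies from overlapping gene models of the same locus. Of the 267 members 36 share over 10% of the 50-base words of their longest annotated transcript with another gene, and 117 share none. The 36 had a median log2 difference of 0.20 and the other 231 had 0.15. How reads mapping to several genes were counted is not given in the sources used here, nor is whether strand was used, so the values of these 36 are uncertain.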

How the data were processed

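RPKM, reads divided by gene length and library size, were used as deposited by the authors, with 1 value per gene symbol. Per the submitters' processing notes, the tools were TopHat and HTSeq and the genome build was mm9. Neither a tool version nor the gene annotation is stated there. Each file has 26882 rows for 23167 symbols, and the 2597 symbols on more than 1 row, 29 members among them, carry equal values and were counted once.

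Read numbers were then worked back out of these values. The ratio of low genes' values gave the ratio of library totals, and GENCODE M21 transcript lengths gave the totals, 24741945 reads for CD4 and 23853921 for CD8. With these totals 12715 of 12735 genes detected in each library came out at whole numbers, to within the last printed digit, and so did all 267 members. The length of 225 was the smallest possible, and for the other 42 the multiple nearest an annotated length was taken. Among these were Zfp219, at 3 times the smallest, and Zfp516, Zfp947 and Zfp960, at 2 times each. Reads that are too high a multiple would make an interval too narrow.

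Each cell type has 1 library, so nothing was tested across samples. Fingers and the KRAB core letters were searched in proteins translated from GENCODE M21, since no table of RefSeq proteins was used here, and 11 members were matched under a newer symbol. Shared 50-base words were counted on the sense strand against all GENCODE M21 transcripts. The annotations are of GRCm38, so the only coordinates given are those of the promoters shown. The members, lists, size rule and naming rule were chosen with earlier results of these data known. Genes named are the 12 highest by mean RPKM, the 12 largest differences each way, genes past the size rule, members of 3 lists by known role, 5 genes on each side of the threshold and the leading corepressor genes. Genes with a ratio of 2 or more without the pseudocount, and genes in runs, were named after their values were seen. Scripts used Python 3.11.15, numpy 2.4.6, pandas 2.3.3 and scipy 1.17.1 and were tested on simulated data.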

Additional observations from a re-analysis of the deposited data

How the results depend on the processing

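The median log2 difference of the 267 Zfp genes kept its sign under every alternative run. It moved by over 0.1 only with both libraries brought to a summed RPKM of 1000000, where it was 0.36, with 0.38 for members with the KRAB letters and 0.35 for those without, against 0.29 for all compared genes. The number of members at least 2-fold higher in CD4 was 1 as reported, 8 with a pseudocount of 0.1 RPKM, 0 with a pseudocount of 5 RPKM, 0 with a threshold of 5 RPKM, 11 after the rescaling and 0 with symbols on more than 1 row left out. The number at least 2-fold higher in CD8 was 0 as reported, 3 with a pseudocount of 0.1 RPKM and 0 with that of 5 RPKM. It was also 0 after the rescaling. Centred on the median compared gene, 1 member, Zfp467, was past the size rule toward CD4 and 1, Zfp827, toward CD8. In all compared genes the shares toward CD4 and CD8 were 4.18% and 4.52% with the pseudocount of 0.1 RPKM and 0.714% and 1.22% with that of 5 RPKM. They were 2.12% and 3.6% when centred and 5.05% and 2.79% after the rescaling, which shifted the median compared gene by 0.21. No such share was taken for the threshold of 5 RPKM or with symbols on more than 1 row left out. Of 36 members at the ends or the top of the family, the sign changed for Zfp207 and Zfp292 when centred and for Zfp259 after the rescaling. Leaving out the 36 members with over 10% of 50-base words shared, an alternative chosen after seeing the data, gave a median of 0.15, and a looser KRAB pattern gave 0.17 with and 0.14 without the letters. No paired analysis was possible because each cell type has 1 library. That number of libraries limits all comparisons, and at low levels reads do too. Zfp947 rests on 82 and 18 reads in CD4 and CD8, taken at 2 times their smallest whole numbers.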
